A study of Mus musculus with 5 samples.

Results

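The insulin-like growth factor (IGF) genes were followed across 5 mouse cell lines by RNA sequencing. They were 10 genes of the 21437 in the deposited table, chosen by symbol: 2 ligands (Igf1 and Igf2), 3 receptors (Igf1r, Igf2r and Insr) and 5 binding proteins (Igfbp2, Igfbp3, Igfbp4, Igfbp5 and Igfbp6). All 10 were found. NIH3T3 is an embryonic fibroblast line of Swiss mice. The 4 pituitary lines came from tumors of CB6F1/J mice that carried a transgene for the SV40 T-antigen, so T-antigen is shared by these 4 lines and is a way in which they differ from NIH3T3. αT1–1 is labelled an immature gonadotrope line and αT3–1 an intermediate one, both of embryonic stage. LβT2 is labelled a mature gonadotrope line, and TαT1 a thyrotrope line of mature stage. Gonadotropes are the pituitary cells that make LH and FSH, and thyrotropes make TSH. All lines were grown in the same medium with fetal bovine serum, without treatment, and were harvested below confluence. Each kind of cell is represented by 1 tumor-derived or established line.

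IGF1 and IGF2 are small secreted peptides that act mainly through the receptor tyrosine kinase IGF1R, and IGF2 also binds one isoform of the insulin receptor. IGF2R has no kinase. It takes IGF2 into the cell for breakdown and also carries lysosomal enzymes tagged with mannose 6-phosphate. The IGF-binding proteins are secreted, bind both ligands with high affinity, and limit or prolong the access of the ligands to the receptors. In the pituitary, IGF1 is best known as the signal that feeds back on growth hormone.

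Levels are given as RPKM, in which reads are divided by the length of the gene and by the reads of the library, so that levels of different genes can be set side by side. There is 1 column per line, although 2 libraries per line are described in the study's methods, and whether they were pooled or averaged is not given in the sources used here. No difference between lines could therefore be tested. The intervals given are exact 95% intervals of the reads behind a value, recovered from the steps between low values. They cover counting error only, not the spread between cultures. By the same steps, columns stood for an estimated 14.2 to 20.7 M reads (M, 1000000), and 9602 to 11438 genes reached 1 RPKM. Each estimate was below the reads stated for that line in the study's methods, where no number is stated for αT1–1. The lines carried the markers of their labels in part. Cga, the common α subunit, was between 603.5 and 12968 RPKM in the 4 pituitary lines and 0.102 in NIH3T3, Gnrhr was above 0 only in αT3–1 (206 RPKM) and LβT2 (72.3), Tshb reached 58.5 in TαT1, and Fshb was listed at 0 in all 5. The gonadotrope marker Nr5a1 was at 265 in LβT2, 162 in αT3–1 and at most 0.687 elsewhere. Lhb was at 23.3 in LβT2 and at most 0.414 elsewhere. The thyrotrope marker Pou1f1 was at 88.0 in TαT1, 3.21 in αT1–1 and at most 0.0612 elsewhere. Of the 5 gonadotrope markers, only Cga reached 1 RPKM in αT1–1. The study describes that line as a progenitor for gonadotropes, thyrotropes or both. Of 6 fibroblast markers, the summed level was 4690 RPKM in NIH3T3 and 3.60 to 24.2 in the other lines.

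The stretch before the RefSeq start is shown for 4 binding protein genes, as pairs that were high or low in the same lines (GRCm38.p6 assembly, 250 bases ending at the base before the start, on the strand of the gene). Igfbp2 and Igfbp5 lie next to each other and were both near 0 in NIH3T3 and αT3–1, and Igfbp4 and Igfbp6 were the binding proteins of NIH3T3. Capitals mark the TATA motif TATAAA, the GC box GGGCGG and the E-box CACGTG, searched on both strands.
Igfbp2 (chr1:72824230-72824479, + strand): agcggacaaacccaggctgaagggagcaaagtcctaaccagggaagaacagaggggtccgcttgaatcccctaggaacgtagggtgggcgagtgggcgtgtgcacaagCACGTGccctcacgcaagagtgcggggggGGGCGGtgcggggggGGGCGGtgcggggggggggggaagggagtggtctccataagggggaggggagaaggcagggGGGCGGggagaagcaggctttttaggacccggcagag
Igfbp5 (chr1:72874866-72875115, − strand): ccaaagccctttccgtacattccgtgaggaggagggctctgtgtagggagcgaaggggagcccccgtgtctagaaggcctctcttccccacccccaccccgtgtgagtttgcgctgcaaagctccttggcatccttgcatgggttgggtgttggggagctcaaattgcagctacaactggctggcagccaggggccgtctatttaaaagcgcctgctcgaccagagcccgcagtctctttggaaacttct
Igfbp4 (chr11:99040994-99041243, + strand): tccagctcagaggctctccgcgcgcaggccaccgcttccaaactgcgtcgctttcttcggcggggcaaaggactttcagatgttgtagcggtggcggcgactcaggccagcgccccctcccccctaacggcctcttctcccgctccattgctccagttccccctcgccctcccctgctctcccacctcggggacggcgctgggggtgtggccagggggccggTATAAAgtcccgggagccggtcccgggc
Igfbp6 (chr15:102143936-102144185, + strand): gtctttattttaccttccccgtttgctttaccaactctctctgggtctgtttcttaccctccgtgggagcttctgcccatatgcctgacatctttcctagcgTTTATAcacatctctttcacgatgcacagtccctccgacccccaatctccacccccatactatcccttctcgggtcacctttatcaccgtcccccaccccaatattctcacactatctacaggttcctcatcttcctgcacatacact
Igfbp2 has a second RefSeq start, whose window (not shown) held none of the 3 motifs. At the start shown it had 3 GC boxes, starting at −113, −98 and −37, and an E-box at −142, where −1 is the last base printed. Igfbp4 had a TATAAA at −28. Igfbp6 had the same motif on the other strand at −148 (printed as its reverse complement), and none of the 3 motifs was in the Igfbp5 window. No match overlapped another. Of all 32851 windows of this length, 12.4% held TATAAA, 32.7% GGGCGG and 6.02% CACGTG. The table held 13 starts for 9 of the 10 genes, and gene-level RPKM do not show which start was used. A match is a description of the letters and not a site of binding.

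**Figure D1:**
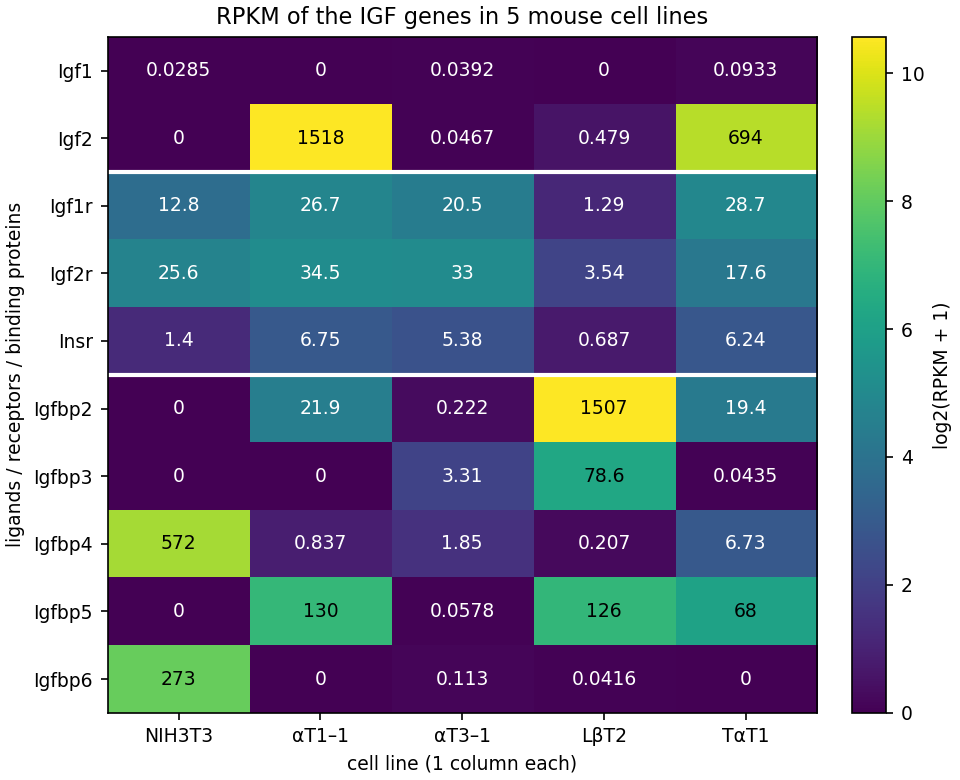
RPKM of the 10 IGF genes (rows, ordered as ligands, receptors and binding proteins) in the 5 cell lines (columns, 1 value each). Color is log2(RPKM + 1) and the printed number is the RPKM. Igf2 was 1518.5 in αT1–1 and 694 in TαT1, and Igfbp2 was 1507 in LβT2.

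Igf2 transcripts were abundant in 2 lines and close to absent in 3. Igf2 (chromosome 7, 142650766 to 142666816 of GRCm38, − strand, 4 exons in the longest transcript) was at 1518.5 RPKM in αT1–1, 694 in TαT1, 0.479 in LβT2, 0.0467 in αT3–1 and 0 in NIH3T3. It ranked 4 among all genes of αT1–1, where it made up 0.404% of the summed RPKM, and 32 among those of TαT1. The 3 lines labelled gonadotrope thus held both the highest level of the fetal growth factor gene and 2 of the 3 lowest. Whole reads could not be recovered for Igf2, and its reads were estimated at the length of the longest annotated transcript (4722 bp), about 145133 in αT1–1, 61795 in TαT1, 42 in LβT2 and 5 in αT3–1. With these, αT1–1 was 2.19-fold above TαT1 (95% counting interval 2.17 to 2.21) and 3169-fold above LβT2 (2357 to 4421). LβT2 was 10.3-fold above αT3–1 (3.69 to 30.2), and the 0 of NIH3T3 had an upper 95% limit of 0.0548 RPKM. The order was therefore αT1–1, TαT1, LβT2 and αT3–1, with αT3–1 and NIH3T3 not told apart. Of the 36-base words of its longest annotated coding transcript, 76.0% also occur in other annotated genes, among them the overlapping model Gm49394, and how such reads were counted is not given in the sources used here.

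H19 and Igf2as, at the same locus as Igf2, were also highest in αT1–1 and TαT1. H19, the imprinted noncoding RNA gene 72.6 kb away, was at 22.9 RPKM in αT1–1 (588 reads), 40.3 in TαT1 (961 reads), 0.127 in LβT2 (3 reads) and 0 in αT3–1 and NIH3T3. TαT1 was 1.76-fold above αT1–1 (1.58 to 1.95), the reverse of the order for Igf2. The length recovered for H19 was 0.554 of its longest transcript, so its reads could be undercounted by a whole factor. Igf2as, the antisense transcript of the locus, was at 13.8 RPKM in αT1–1, 6.43 in TαT1 and at most 0.0229 in the other lines. Igf2 was 110 times Igf2as in αT1–1 and 108 times in TαT1, and since the libraries do not mark strand, reads of these overlapping genes cannot be told apart. Mrpl23, the neighbor on one side, was between 0.0921 and 1.45 RPKM, and the insulin gene Ins2 on the other side was at most 0.116.

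Igf1, the ligand that carries growth hormone signals in most tissues, was near the detection limit in all 5 lines. Igf1 (chromosome 10, 87858265 to 87937042, + strand) had 13 reads in TαT1 (0.0933 RPKM, interval 0.0497 to 0.159), 6 in αT3–1 (0.0392), 3 in NIH3T3 (0.0285) and 0 in αT1–1 and LβT2. TαT1 was 2.38-fold above αT3–1 with an interval of 0.843 to 7.63, so that the lines with reads could not be put in order at this depth. The 0 of LβT2 allows up to 0.0217 RPKM at 3 reads, and that of αT1–1 slightly less. Igf1 was the 1 gene of the 10 that did not reach 1 RPKM in any line.

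The 3 receptor genes were lowest in LβT2. Igf1r (chromosome 7, 67952827 to 68233668, + strand), the signaling receptor for both ligands, was highest in TαT1 at 28.7 RPKM (28.0 to 29.4), followed by αT1–1 at 26.7 (26.1 to 27.4), αT3–1 at 20.5 (19.9 to 21.1), NIH3T3 at 12.8 (12.2 to 13.3) and LβT2 at 1.29 (1.15 to 1.45). LβT2 had 289 reads, against 2177 to 6480 in the other lines. Igf1r was 20.7-fold higher in αT1–1 than in LβT2 (18.4 to 23.3) and 9.87-fold higher in NIH3T3 than in LβT2 (8.72 to 11.2). The neighbors at the top, TαT1 and αT1–1, differed 1.07-fold (1.04 to 1.11), beyond counting error but by far less than the gap to LβT2.

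Igf2r (chromosome 17, 12682406 to 12769664, − strand), the clearance receptor for IGF2, was at 34.5 RPKM in αT1–1, 33.0 in αT3–1, 25.6 in NIH3T3, 17.6 in TαT1 and 3.54 in LβT2 (590 reads, 3.26 to 3.84). αT1–1 was 9.74-fold above LβT2 (8.95 to 10.6), and TαT1, the next lowest line, was 4.97-fold above it (4.55 to 5.44). αT1–1 and αT3–1 differed 1.04-fold (1.01 to 1.08), and their order turned when the columns were scaled to the same summed RPKM (37.1 and 42.7). Insr (chromosome 8, 3122061 to 3279617, − strand), the insulin receptor gene, was at 6.75 RPKM in αT1–1, 6.24 in TαT1, 5.38 in αT3–1, 1.40 in NIH3T3 and 0.687 in LβT2 (120 reads, 0.570 to 0.822). αT1–1 and TαT1 could not be told apart (1.08-fold, 0.998 to 1.17). LβT2 was 9.83-fold below αT1–1 (8.14 to 11.9) and NIH3T3 was 2.03-fold above LβT2 (1.61 to 2.58), so the insulin receptor was low in the fibroblasts too, unlike Igf1r and Igf2r.

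**Figure D2:**
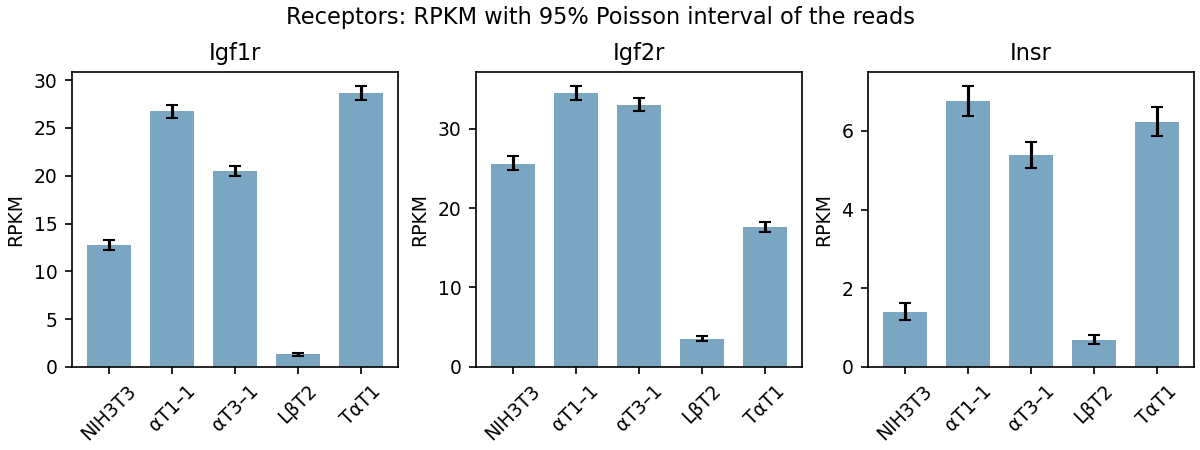
RPKM of Igf1r, Igf2r and Insr in the 5 lines, with bars from 0 and exact 95% Poisson intervals of the reads (counting error only, 1 column per line). LβT2 was the lowest line for each of the 3 genes, at 1.29, 3.54 and 0.687 RPKM.

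The balance among receptors also differed between lines. Igf1r was above Insr in each line, by 9.14 times in NIH3T3, 4.59 in TαT1, 3.96 in αT1–1, 3.81 in αT3–1 and 1.88 in LβT2. Igf2r was above Igf1r in 4 lines, from 1.29 times in αT1–1 to 2.74 in LβT2, and below it in TαT1 (0.615). Summed over the 3 receptors, the level was 68.0 RPKM in αT1–1, 58.9 in αT3–1, 52.5 in TαT1, 39.8 in NIH3T3 and 5.52 in LβT2.

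All 3 receptors have transcripts over 8 kb, and long transcripts as a class were lower in LβT2 than in the other pituitary lines. Against αT3–1, the 629 genes with a longest coding transcript of 8 kb or more had a median difference of −0.98 in log2(RPKM + 1), and 15.9% of them were at least 4-fold lower, while the genes under 8 kb had a median of 0.07 and 6.50% were lower. Against αT1–1, the medians were −0.38 and 0.12, with 9.53% and 5.04% at least 4-fold lower. Against TαT1, they were −0.10 and 0.09, with 9.51% and 5.49%. Against NIH3T3, the long genes were not lower than the rest (0.77 and 0.34, with 5.29% and 7.75%). There, Igf1r was 9.87-fold, Igf2r 7.24-fold and Insr 2.03-fold higher in NIH3T3 than in LβT2. The part of transcript length in the receptor levels was not tested.

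The leading binding protein was Igfbp5 in αT1–1 and TαT1 and a different gene in each of the other 3 lines, and the sum over the 5 genes ranged from 5.55 RPKM in αT3–1 to 1712 in LβT2. Igfbp2 made up 88.0% of the sum in LβT2, Igfbp5 made up 85.1% in αT1–1 and 72.2% in TαT1, Igfbp4 made up 67.7% in NIH3T3, and Igfbp3 made up 59.6% in αT3–1. The sum was 845 RPKM in NIH3T3, 153 in αT1–1 and 94.2 in TαT1. The ratio of summed binding proteins to summed receptors was 310 in LβT2, 21.3 in NIH3T3, 2.25 in αT1–1, 1.79 in TαT1 and 0.0943 in αT3–1. LβT2 thus joined the highest binding protein level to the lowest receptor level, and αT3–1 was the 1 line in which receptors exceeded binding proteins.

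Igfbp2 (chromosome 1, 72824503 to 72852474, + strand), which encodes a binding protein with some preference for IGF2, was at 1507 RPKM in LβT2 (36661 reads), 21.9 in αT1–1 (578), 19.4 in TαT1 (476), 0.222 in αT3–1 (6) and 0 in NIH3T3. In LβT2 it ranked 11 among all genes. LβT2 was 68.8-fold above αT1–1 (63.4 to 74.8), 77.8-fold above TαT1 (71.1 to 85.3), 6774-fold above αT3–1 (3112 to 18459) and at least 9329-fold above NIH3T3. αT1–1 and TαT1 differed 1.13-fold with an interval from 0.99977 to 1.28 and were not told apart, while both were well above αT3–1 (98.5-fold and 87.1-fold).

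Igfbp5 (chromosome 1, 72857932 to 72874884, − strand), a binding protein that attaches to extracellular matrix, lies tail to tail with Igfbp2, 5.46 kb away. It was at 130 RPKM in αT1–1 (15434 reads), 126 in LβT2 (13790), 68.0 in TαT1 (7505), 0.0578 in αT3–1 (7) and 0 in NIH3T3. Both neighbors were thus above 10 RPKM in the same 3 lines and under 1 RPKM in the other 2, but Igfbp5 differed only 1.03-fold between αT1–1 and LβT2 (1.01 to 1.06) where Igfbp2 differed 68.8-fold. αT1–1 was 1.91-fold above TαT1 for Igfbp5 (1.86 to 1.97). Rpl37a, the gene on the other side of Igfbp2, was at 35.0 to 189 RPKM in all 5 lines, and Tnp1, beyond Igfbp5, was at most 0.503.

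Igfbp3 (chromosome 11, 7206086 to 7213923, − strand), the main IGF carrier of serum, was at 78.6 RPKM in LβT2 (3577 reads), 3.31 in αT3–1 (167), 0.0435 in TαT1 (2 reads) and 0 in αT1–1 and NIH3T3. LβT2 was 23.7-fold above αT3–1 (20.3 to 27.9) and at least 1293-fold above αT1–1. αT3–1 was 76.1-fold above TαT1, with a wide interval (20.7 to 633). Igfbp3 was therefore present in the 2 lines with Gnrhr, at unlike levels. Igfbp1, which lies 3.54 kb from it, stayed at or below 0.106 RPKM in every line.

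Igfbp4 and Igfbp6 were the binding proteins of the fibroblast line. Igfbp4 (chromosome 11, 99041244 to 99054392, + strand), which mostly restrains IGF action, was at 572 RPKM in NIH3T3 (rank 88), 6.73 in TαT1 (262 reads), 1.85 in αT3–1 (79), 0.837 in αT1–1 (35) and 0.2075 in LβT2 (8). NIH3T3 was 85.1-fold above TαT1 (75.3 to 96.5) and 2759-fold above LβT2 (1400 to 6391). Among pituitary lines, TαT1 was 3.64-fold above αT3–1 (2.82 to 4.74), αT3–1 was 2.21-fold above αT1–1 (1.47 to 3.39) and αT1–1 was 4.03-fold above LβT2 (1.84 to 10.1). The order was clear beyond counting error at each step. The length recovered for Igfbp4 was 0.539 of its longest transcript, and its reads could be undercounted by a whole factor.

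Igfbp6 (chromosome 15, 102144362 to 102149511, + strand), a binding protein with strong preference for IGF2, was at 273 RPKM in NIH3T3 (5009 reads), with 3 reads in αT3–1 (0.113 RPKM), 1 in LβT2 (0.0416) and 0 in αT1–1 and TαT1. NIH3T3 was 2424-fold above αT3–1 (829 to 11761) and at least 2372-fold and 2209-fold above αT1–1 and TαT1. The 4 pituitary lines were at or below the level of 3 reads and could not be ordered.

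**Figure D3:**
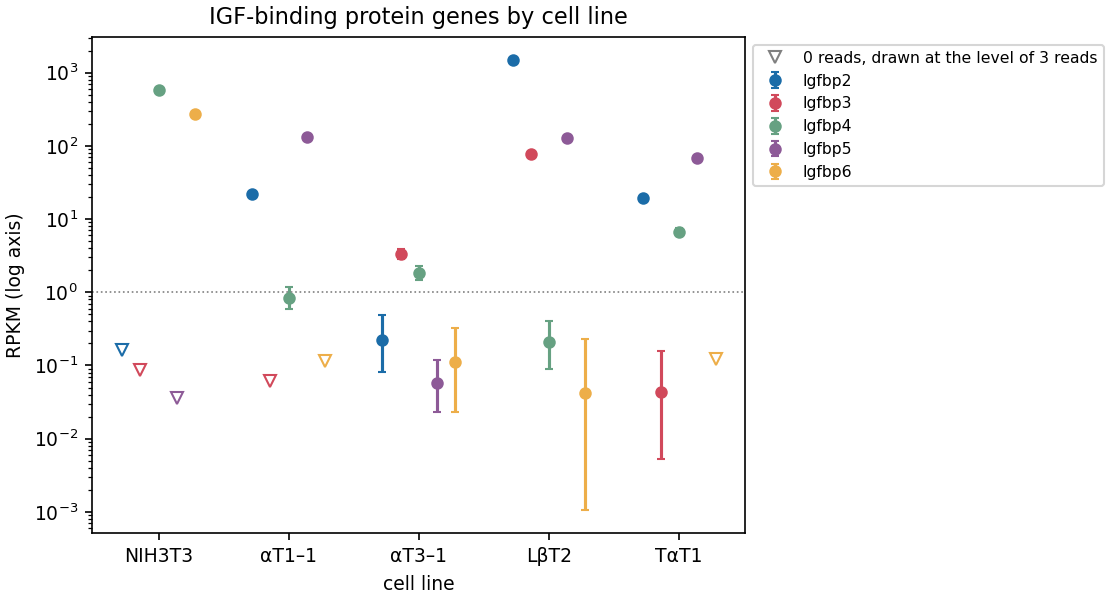
RPKM of the 5 binding protein genes in each line on a log axis, with exact 95% Poisson intervals of the reads. Open triangles stand for 0 reads and are drawn at the level of 3 reads, and the dotted line is 1 RPKM. Igfbp4 and Igfbp6 led in NIH3T3, and Igfbp2, Igfbp3 and Igfbp5 were each above 10 RPKM together only in LβT2.

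Markers of other cell types differed between lines beside these genes. Of 3 endothelial markers, 2 were above 1 RPKM in LβT2 (Cdh5 at 50.6 and Pecam1 at 15.2), with Kdr at 0. Also 2 were above 1 RPKM in αT3–1 (Kdr at 15.3 and Cdh5 at 1.16) and in TαT1 (Kdr at 20.9 and Pecam1 at 1.01). In αT1–1, 1 was (Kdr at 65.0). Their summed level was 16.5 to 65.8 RPKM in the pituitary lines and 0.212 in NIH3T3. Of 5 markers of other pituitary cells, 3 passed 1 RPKM in TαT1 (Prl at 108, Pomc at 5.22 and Gh at 1.57), and the summed level was at most 0.444 elsewhere. Of 3 blood markers, Ptprc and Hbb-b1 were at 0 in all lines and Cd68 was at 0.691 to 1.67. The part of such cells or programs in the levels of Igfbp2, Igfbp3 and Igfbp5 was not tested.

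The IGF genes, which were chosen with earlier results of these data known, varied more over the lines than most genes did. Of the 10, 9 reached 1 RPKM in at least 1 line, as did 13401 genes of the table. The median range from the lowest to the highest line was 7.04 in log2(RPKM + 1) for the 9, against 1.74 for all. The range was at least 2 for 9 of 9 (40.8% of all genes) and at least 6 for 6 of 9, all but the receptors (2.75% of all genes). With a pseudocount of 1, the range is bounded by the highest level of a gene. These 6 peaked at 78.6 to 1518.5 RPKM, and the genes set beside them were not matched for level. Of 7 other ligands, carriers and receptors of the family, 0 had a range of at least 2, and none was above 1.06 RPKM. In each line, 5 to 7 of the 10 were at 1 RPKM or more, beside 44.8% to 53.4% of all genes.

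Lines were then compared by the count of genes with a 4-fold difference, taken as 2 in log2(RPKM + 1), among genes that reached 1 RPKM in either line. Along the gonadotrope series, αT3–1 against αT1–1 had 1 of 8 IGF genes higher (Igfbp3, 2.11) and 3 lower (Igf2, −10.50, Igfbp5, −6.96, and Igfbp2, −4.23), where 5.41% of all genes were higher and 2.79% lower. The median difference was −0.32 for the IGF genes and 0.04 for all genes. LβT2 against αT3–1 had 3 of 7 higher (Igfbp2, 10.27, Igfbp5, 6.91, and Igfbp3, 4.21) and 2 lower (Igf1r, −3.23, and Igf2r, −2.91), against 6.36% and 6.83% of all genes, with medians of −1.24 and 0.01. Insr, at −1.92, fell just short. Igfbp2 and Igfbp5 were thus low only in the middle line of the series, and Igf2 was high only in the first.

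LβT2 against αT1–1 had 2 of 7 higher (Igfbp3, 6.31, and Igfbp2, 6.04) and 4 lower (Igf2, −10.00, Igf1r, −3.60, Igf2r, −2.97, and Insr, −2.20). Of all genes, 6.73% were higher and 5.16% lower, and the medians were −2.20 for the IGF genes and 0.12 for all. These comparisons share lines and do not count as separate evidence.

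TαT1 had fewer IGF genes past 4-fold against αT1–1 than against LβT2, and all genes of the table showed the same order. Against αT1–1, 1 of 7 was higher (Igfbp4, 2.07) and 0 lower, where 1.84% and 1.77% of all genes were, and Igf2 was at −1.13, Igf2r at −0.93, Igfbp5 at −0.93, Igfbp2 at −0.17, Insr at −0.10 and Igf1r at 0.10. With no replicates this count of 0 comes from size alone. Against LβT2, 5 of 8 were higher (Igf2, 8.88, Igf1r, 3.69, Igfbp4, 2.68, Insr, 2.10, and Igf2r, 2.04) and 2 lower (Igfbp3, −6.25, and Igfbp2, −6.21), where 5.5% of all genes were higher and 6.55% lower. The medians were 2.07 and −0.08. Igfbp5, at −0.88, was the 1 gene compared that did not pass.

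In the comparison of the 4 pituitary lines with NIH3T3, where a gene had to pass in each of the 4, 0 of 9 IGF genes were higher and 2 lower (Igfbp4 and Igfbp6). Of all genes, 4.54% were higher and 3.72% lower by this rule. The median over lines was 1.08 for the IGF genes and 0.31 for all genes. The median over lines was 6.55 for Igfbp5, 5.00 for Igf2 and 4.43 for Igfbp2, which did not pass in each of the 4 because they were near 0 in αT3–1 or, for Igf2, also in LβT2.

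**Figure D4:**
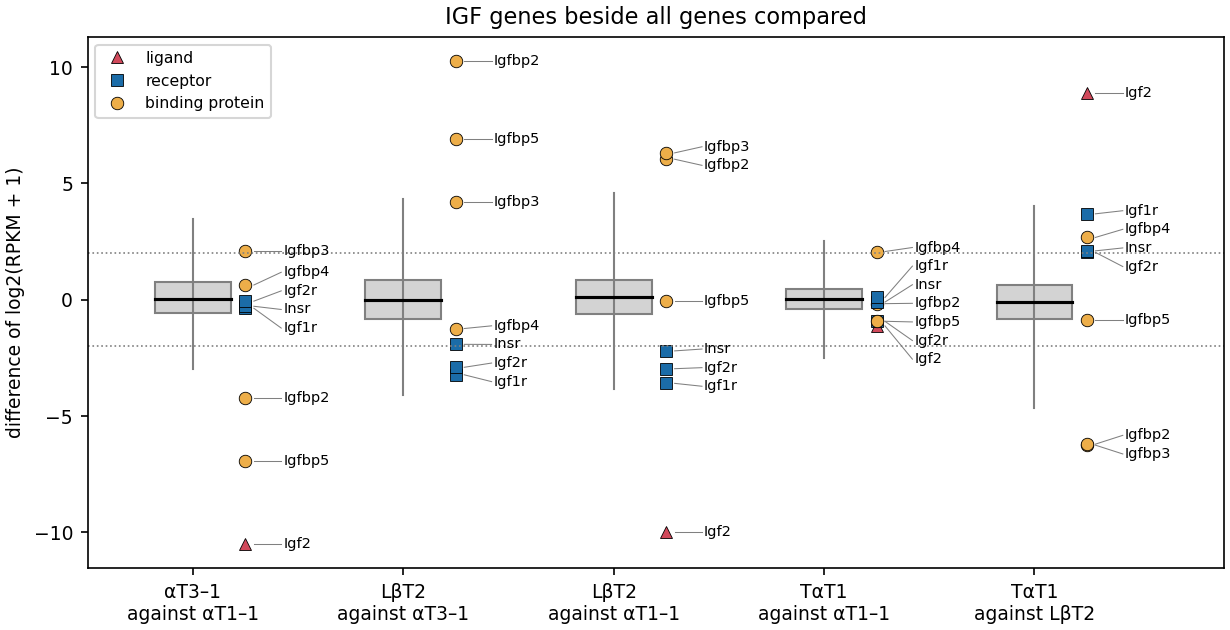
Difference of log2(RPKM + 1) between pairs of lines. Grey boxes give the quartiles and median of all genes compared, grey lines the 1st to 99th percentile, and symbols the IGF genes (triangle, ligand, square, receptor, circle, binding protein). Dotted lines are at −2 and 2. In LβT2 against αT3–1 and against αT1–1, Igf1r and Igf2r lie below −2 and Igfbp2 and Igfbp3 above 2. Insr lies below −2 against αT1–1 (−2.20) and just short of it against αT3–1 (−1.92).

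By largest difference over the 5 lines, the genes nearest to each IGF gene were sought as a description with n = 5 lines. Nearest to Igf1r were Hapln4 (at most 0.44 apart in log2(RPKM + 1)), the receptor substrate gene Irs2 (0.65) and Acsl1 (0.76). Nearest to Igf2r were Phlda1 (0.47), Zmat3 (0.61) and Rasa4 (0.73). For Igfbp6 they were Ccl7 (0.16), Dlk1 (0.19) and Tm4sf1 (0.20), and for Igfbp3 Kcng4 (0.21), Gnb3 (0.55) and Fam159a (0.85). The nearest genes of the other 4 were farther away. Igfbp4 had Capg (1.40), Ehd2 (1.68) and Tinagl1 (1.79), Igfbp2 had Gpt (2.14), Cd82 (2.73) and Fam20c (2.89), Igfbp5 had Gata2 (2.29), Syt9 (2.44) and Itpka (2.44), and Igf2 had Calcr (2.74), Ndn (2.83) and Id2 (3.53).

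Other genes of the pathway were counted in the same way, with the shares of all genes higher and lower in parentheses. Of 7 other ligands, carriers and receptors of the family, 1 reached 1 RPKM (Igfbp7, 1.06 in NIH3T3), so the 10 genes described held nearly all of the family's transcripts. Of 12 proteases of the binding proteins and their inhibitors, 0 of 7 compared were higher and 1 lower in αT3–1 against αT1–1 (all genes, 5.41% and 2.79%). LβT2 had 2 of 7 higher and 1 lower against αT3–1 (6.36% and 6.83%) and 2 of 8 higher and 3 lower against αT1–1 (6.73% and 5.16%). TαT1 had 2 of 8 higher and 0 lower against αT1–1 (1.84% and 1.77%) and 2 of 9 higher and 1 lower against LβT2 (5.5% and 6.55%). Against NIH3T3, 0 of 10 were higher in the whole set of pituitary lines and 3 lower (4.54% and 3.72%). These counts pool proteases and inhibitors. The higher genes were Mmp2 and the inhibitor gene Stc2 in both LβT2 comparisons, and Htra1 and Stc2 in TαT1 against αT1–1. The protease gene Pappa was at most 0.0096 RPKM in any line. Htra1, a secreted serine protease, was at 98.1 RPKM in TαT1, 26.1 in NIH3T3 and 3.18 to 8.49 in the gonadotrope lines. Mmp2, a gelatinase, was at 112 RPKM in NIH3T3, 11.0 in LβT2 and at most 0.357 elsewhere. Mmp14, its membrane-bound activator, was at 29.4 in NIH3T3, 5.86 in αT1–1, 1.33 in TαT1, 0.144 in LβT2 and 0 in αT3–1. Adam12, a metalloprotease, was highest in TαT1 (10.2), with αT1–1 at 4.33, αT3–1 at 3.94, LβT2 at 0.0140 and NIH3T3 at 0.

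Of 8 genes compared that bind or regulate Igf2 RNA, 0 were higher and 5 lower in each pituitary line than in NIH3T3, where Igf2 itself was at 0. By that rule 4.54% of all genes were higher and 3.72% lower. Between pituitary lines, 3 to 5 of the list were compared, and the genes that passed were H19 and Plagl1, a zinc finger factor. In αT3–1 against αT1–1, 1 of 5 was higher and 1 lower (all genes, 5.41% and 2.79%). LβT2 had 0 of 3 higher and 1 lower against αT3–1 (6.36% and 6.83%) and against αT1–1 (6.73% and 5.16%). TαT1 had 1 of 4 higher and 0 lower against αT1–1 (1.84% and 1.77%), and 2 of 4 and 0 against LβT2 (5.5% and 6.55%). H19 was lower in αT3–1 and LβT2 than in αT1–1 and higher in TαT1 than in LβT2, and Plagl1 was higher in αT3–1 and TαT1 than in αT1–1 and LβT2. Igf2bp2, which binds Igf2 mRNA, reached 27.9 RPKM in NIH3T3 against 0.0124 to 2.15 in the others, and Hmga2, a chromatin protein, was at 20.8 against 0. Hmga1 was at 57.6 against 1.94 to 3.01.

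Downstream of the receptors, 7 of 15 substrates and adaptors had a range of at least 2 in log2(RPKM + 1) over the lines (46.7%, against 40.8% of all genes). Of the 15, 2 were higher and 1 lower in αT3–1 than in αT1–1 (all genes, 5.41% and 2.79%). LβT2 had 1 higher and 2 lower against αT3–1 (6.36% and 6.83%) and 0 and 3 against αT1–1 (6.73% and 5.16%). TαT1 had 0 and 2 against αT1–1 (1.84% and 1.77%) and 2 and 1 against LβT2 (5.5% and 6.55%), and 0 and 0 passed in the 4 lines against NIH3T3 (4.54% and 3.72%). Among the docking proteins, Irs4 was at 200 RPKM in αT1–1, 160 in LβT2, 18.1 in αT3–1, 0.968 in TαT1 and 0 in NIH3T3. Irs2 was at 36.9 in TαT1, 18.4 in αT1–1, 13.0 in αT3–1, 9.26 in NIH3T3 and 2.59 in LβT2, and Irs1 at 13.7 in αT3–1 and 0.620 to 3.80 elsewhere. Grb10, an adaptor that restrains both receptors, was at 26.9 in NIH3T3, 26.8 in αT3–1 and 1.88 to 6.72 in the others. LβT2 was thus the lowest line for the 3 receptors, for Irs2 and for Irs1 (0.620), but held Irs4. Among the adaptors, Gab1 was at 0 in LβT2 and 5.70 to 8.28 elsewhere, while Grb14 was highest in LβT2 at 50.4.

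Of 24 genes of PI3K, AKT, TOR and FOXO, 2 were higher and 0 lower in αT3–1 than in αT1–1 (all genes, 5.41% and 2.79%). LβT2 had 1 higher and 1 lower against αT3–1 (6.36% and 6.83%) and 1 and 0 against αT1–1 (6.73% and 5.16%). TαT1 had 0 and 0 against αT1–1 (1.84% and 1.77%) and, of 23 compared, 0 and 2 against LβT2 (5.5% and 6.55%). In the 4 lines against NIH3T3, 1 passed as higher and 0 as lower (4.54% and 3.72%). The kinase gene Akt2 reached 173 RPKM in LβT2 against 16.6 to 48.2 in the others, and Foxo1, a transcription factor held back by AKT, was at 25.4 in αT3–1 against 0.560 to 3.87. Pik3r3, a regulatory subunit of PI3K, was at 10.1 to 29.3 in the pituitary lines and 1.47 in NIH3T3. Of 7 genes of the growth hormone axis, 5 were compared between pituitary lines. In αT3–1 against αT1–1, 1 was higher and 0 lower (all genes, 5.41% and 2.79%), and in LβT2 0 were higher and 2 lower against αT3–1 (6.36% and 6.83%) and against αT1–1 (6.73% and 5.16%). In TαT1, 1 was higher and 0 lower against LβT2 (5.5% and 6.55%), and 0 passed against αT1–1 (1.84% and 1.77%). Socs2, a feedback inhibitor of growth hormone signaling, was at 43.6 in αT3–1 and 0.0539 to 2.26 elsewhere. Stat5a and Stat5b, which carry the signal to Igf1 in liver, were at 5.07 and 13.7 in LβT2 against 45.2 and 68.5 in αT1–1. Of 10 genes of mannose 6-phosphate sorting, the other role of IGF2R, 1 was higher in LβT2 than in αT3–1 (Ctsd, cathepsin D, 1111 against 218), and 0 passed in the other 5 comparisons. None passed as lower in LβT2 against αT1–1, αT3–1 or TαT1 (all genes, 5.16%, 6.83% and 5.5%). Over all comparisons, 1.77% to 6.83% of all genes passed in each direction, so counts of 0 or 1 among 10 genes are near the share of all genes. Lamp1 was at 164 to 636, Gnptg at 29.3 to 191 and Vps35 at 13.5 to 73.5 over the 5 lines.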

How the data were processed

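RNA of 5 mouse cell lines was sequenced. The authors isolated RNA with TRIzol, made TruSeq v2 libraries, which select polyadenylated RNA and do not mark strand, and ran 36 bp single-end sequencing with alignment by CASAVA. RPKM were computed by the authors before deposit and stand in 1 column per line. The CASAVA version, the genome build, the annotation and the handling of reads with several positions were not given in the sources used here. The table holds no columns of comparisons.

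Of 21476 entries, 25 with a date in place of a symbol were left out, and for 9 duplicated symbols the entry with the higher mean was kept. Low values were whole multiples of a step in each column (largest distance 0.0058). Taken as the last decimal of the mean coverage per base by 36 bp reads, which is an assumption, the step gave the read total (14.2 M, M being 1000000, for NIH3T3, 18.7 M for LβT2, 18.8 M for TαT1, 20.2 M for αT1–1 and 20.7 M for αT3–1). For each gene, the shortest length from 150 to 15000 bp that made all 5 values whole reads was sought, and was found for 9 of the 10 IGF genes, not for Igf2. Read intervals are exact Poisson and ratios have exact binomial (Clopper-Pearson) intervals, at the 95% level. Lines with 0 reads were compared at 3 reads each, and the folds given as "at least" rest on this setting and are not limits of an exact interval.

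Differences are of log2(RPKM + 1), with a pseudocount of 1, which understates changes of low genes. Genes were counted at a difference of 2 where either line reached 1 RPKM. With 1 column per line no test was made. Named genes are the 10 IGF genes, up to 4 genes of each other list with the largest range among those at 10 RPKM or more, and the 3 nearest genes of each IGF gene at 10 RPKM or more. Some genes that this rule would name are not reported here. The IGF genes and the lists were chosen with earlier results of these data known, and the neighbors, the other genes named and the split at 8 kb were chosen after values were seen. Alternatives were pseudocounts of 0.1 and 5 RPKM, no minimum level, median-of-ratios scaling, the same summed RPKM and annotated lengths. Gene positions come from GENCODE M21 on GRCm38 and promoters from RefSeq (GRCm38.p6). The steps were tested on simulated data made under the same assumption on read totals, so that test cannot check the assumption itself. Python 3.11.15, NumPy 2.4.6, pandas 2.3.3, SciPy 1.17.1 and matplotlib 3.10.9 were used.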

Additional observations from a re-analysis of the deposited data

How the results depend on the processing

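Of 30 counts of IGF genes past 4-fold under the alternatives, 28 stayed within 1.5 times the reported count. With a pseudocount of 5 RPKM, the count fell to 0 for TαT1 against αT1–1 (from 1) and to 4 for TαT1 against LβT2 (from 7), since a larger pseudocount shrinks differences of low genes. Igfbp4 no longer passed in both, nor did Igf2r and Insr in the latter, Insr in LβT2 against αT1–1 and Igfbp3 in αT3–1 against αT1–1. Of 46 differences, 25 passed 4-fold, and 0 of these changed sign under either scaling. Among the others, 2 changed sign with the same summed RPKM, Igf2r in αT3–1 against αT1–1 (−0.06 to 0.20) and in the pituitary lines against NIH3T3 (−0.08 to 0.29). Scaling to the same summed RPKM moved the median of all genes by between −0.48 (LβT2 against αT3–1) and 0.25, median-of-ratios by at most 0.21 (−0.21, all 4 pituitary lines against NIH3T3), and changed the line with the highest level for Igf2r only. Insr newly passed in LβT2 against αT3–1 with a pseudocount of 0.1 RPKM and with the same summed RPKM, and Igfbp4 with the former. With the annotated length, Igfbp4 in NIH3T3 would stand for 31241 reads instead of 16848. With 1 column per line no library could be left out, and differences rest on counting error alone. No paired analysis was possible because each line has 1 column.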

Other observations

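Levels of 4 genes next to IGF genes on the chromosome are given as values, chosen after they were seen. Top2a, beside Igfbp4, was highest in LβT2 at 151.55 RPKM and lowest in TαT1 at 24.3, with NIH3T3 at 33.1, an order unlike that of Igfbp4. Arhgef18, beside Insr, was at 46.7 RPKM in TαT1, 34.3 in αT1–1, 18.1 in NIH3T3, 13.0 in αT3–1 and 10.2 in LβT2. Tns3, beyond Igfbp3, was at 14.3 in αT3–1 and 8.05 in LβT2, and also at 8.68 in NIH3T3, where Igfbp3 had 0 reads. Spryd3, beside Igfbp6, was at 19.03 to 41.9 RPKM in all 5 lines.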
